A study of Homo sapiens with 6 samples.

Results

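The cyclins, cyclin-dependent kinases and mitotic genes described here are 56 genes of 57905 Ensembl gene IDs, chosen by symbol: cyclins of types A, B, D and E, their kinases, CDC25 phosphatases and CKS subunits, CDK inhibitors, the RB and E2F genes with the mitotic regulators FOXM1 and MYBL2, and genes of the spindle, kinetochore and cytokinesis. All 56 matched 1 Ensembl ID each. They were measured in 6 RNA-seq libraries of Huh7, an established human hepatoma line. In 3 libraries (siASGR1) the cells had been transfected with an siRNA against ASGR1, which encodes the major subunit of the hepatic asialoglycoprotein receptor, and in 3 (siControl) with a scrambled siRNA. Both groups were grown in the same serum-containing medium and harvested 72 h after transfection. The labels name a single treatment per group, with no untransfected group and no statement on separate cultures, so the spread between libraries may be technical.

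Cells pass from G1 to S phase when D-type cyclins with CDK4 or CDK6, and then cyclin E with CDK2, phosphorylate RB family proteins and free E2F transcription factors. Cyclin A and then cyclin B with CDK1 carry the cell through S and G2 phase into mitosis, where FOXM1 and the MYBL2-containing MuvB complex switch on genes for the spindle, the kinetochores and the division furrow. In hepatoma lines this programme runs continuously, unlike in resting adult hepatocytes.

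The values are FPKM, fragment counts divided by exon length and library depth, and rested on about 18462000 to 19241000 fragments in the siASGR1 libraries and 16325000 to 19322000 in the siControl libraries, as fitted from the steps between low values. Hepatocyte and hepatoma markers were present, with 10 of 10 at 1 FPKM or more in every library and all 10 called higher, with summed levels of 8190 to 8378 FPKM in siASGR1 and 4058 to 4175 FPKM in siControl. The part of this difference in the results below was not tested. Of 8 fibroblast markers, only PDGFRA was above 1 FPKM in every library, and it was higher, at 10.9 ± 0.54 FPKM in siASGR1 and 4.49 ± 0.09 FPKM in siControl (SD, n = 3; limma adjusted p = 6.59e-06). The collagen genes were lower: COL1A1 was at 0.03, 0.02 and 0.03 FPKM in siASGR1, against 2.77, 2.05 and 2.56 FPKM in siControl, and COL1A2 at 0.02 FPKM in every siASGR1 library, against 1.55, 1.33 and 1.65 FPKM in siControl. With these opposite changes the summed fibroblast level was 11.0 to 12.3 FPKM in siASGR1 and 10.1 to 11.1 FPKM in siControl, and its part was likewise not tested. Endothelial markers summed to at most 0.21 FPKM, with KDR and TEK at 0. Of 6 leukocyte markers LYZ and CD14 were above 1 FPKM in every library and MS4A1 was at 0. Their summed level was 115.9 to 119.5 FPKM in siASGR1 and 69.6 to 76.3 FPKM in siControl, nearly all of it LYZ, which was called higher (adjusted p = 2.42e-05), and its part was not tested. ASGR1 itself was at 4.60, 4.82 and 4.71 FPKM in siASGR1 in the table of the whole series, which is 27.2% of siControl, but at 14.65, 15.81 and 14.04 FPKM (85.6%) in the libraries' own files, against 17.54, 17.56 and 16.90 FPKM in siControl in both, so the labels are only partly checked by the target. Of the 57905 gene IDs, ASGR1 was the only 1 whose FPKM differed between these sources, so the values of the members are the same in both.

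The cell cycle genes changed in both directions and by modest amounts. Of 54 members that passed the filter on low values (at least 1 FPKM in at least 3 libraries), 18 were higher (33.3%) and 14 lower (25.9%) in siASGR1 at a limma adjusted p under 0.05, against 20.9% and 40.4% of the 13568 genes tested and 61.3% in either direction. The other 2, CCND2 and CCNE2, were too low to test. Every siASGR1 library lay above every siControl library for 19 members (35.2%, against 23.5% of tested genes), and below for 16 (29.6%, against 43.8%), where 67.3% of tested genes had no overlap in either direction. The median log2 fold change (siASGR1 over siControl, on the log2(FPKM + 1) scale) was 0.06 over the members and -0.13 over all tested genes. Changes of at least 1.5-fold in mean FPKM were found for 4 members higher (7.41%, against 8.58% of tested genes), KIF20A, ESPL1, CCNB1 and CCNB2, and 4 lower (7.41%, against 19.9%), E2F2, CCND3, E2F1 and CKS2.

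These counts move with the scaling between libraries. FPKM share out a library's total among its genes, and the median gene lay below 0. Median-of-ratios scaling raised the median of all tested genes by 0.17 and that of the members to 0.25. With it 32 members were higher (59.3%, against 33.4% of tested genes) and 8 lower (14.8%, against 25.8%). Quantile normalization gave 21 higher (38.9%, against 28.7%) and 14 lower (25.9%, against 29.6%), and upper-quartile scaling gave 24 higher (44.4%, against 25.1%) and 11 lower (20.4%, against 34.6%). Members called in the same direction under the values as deposited and under 3 other scalings numbered 17 higher and 8 lower. The share of all tested genes with such lasting calls was not counted, so these numbers have no background beside them. The 8 lower were MKI67, CCND1, CCND3, CKS2, E2F1, E2F2, TTK and ECT2. Of the 18 higher, TPX2 was the only one that lost its call with a scaling. The summed FPKM of the 56 members was 2019, 2013 and 1992 in siASGR1, which is 0.652%, 0.633% and 0.641% of all FPKM in the library. In siControl it was 2058, 2049 and 2107, or 0.653%, 0.658% and 0.669%. The libraries are bulk RNA, in which fewer cells of a cycle phase and less RNA per cell cannot be told apart.

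**Figure D1:**
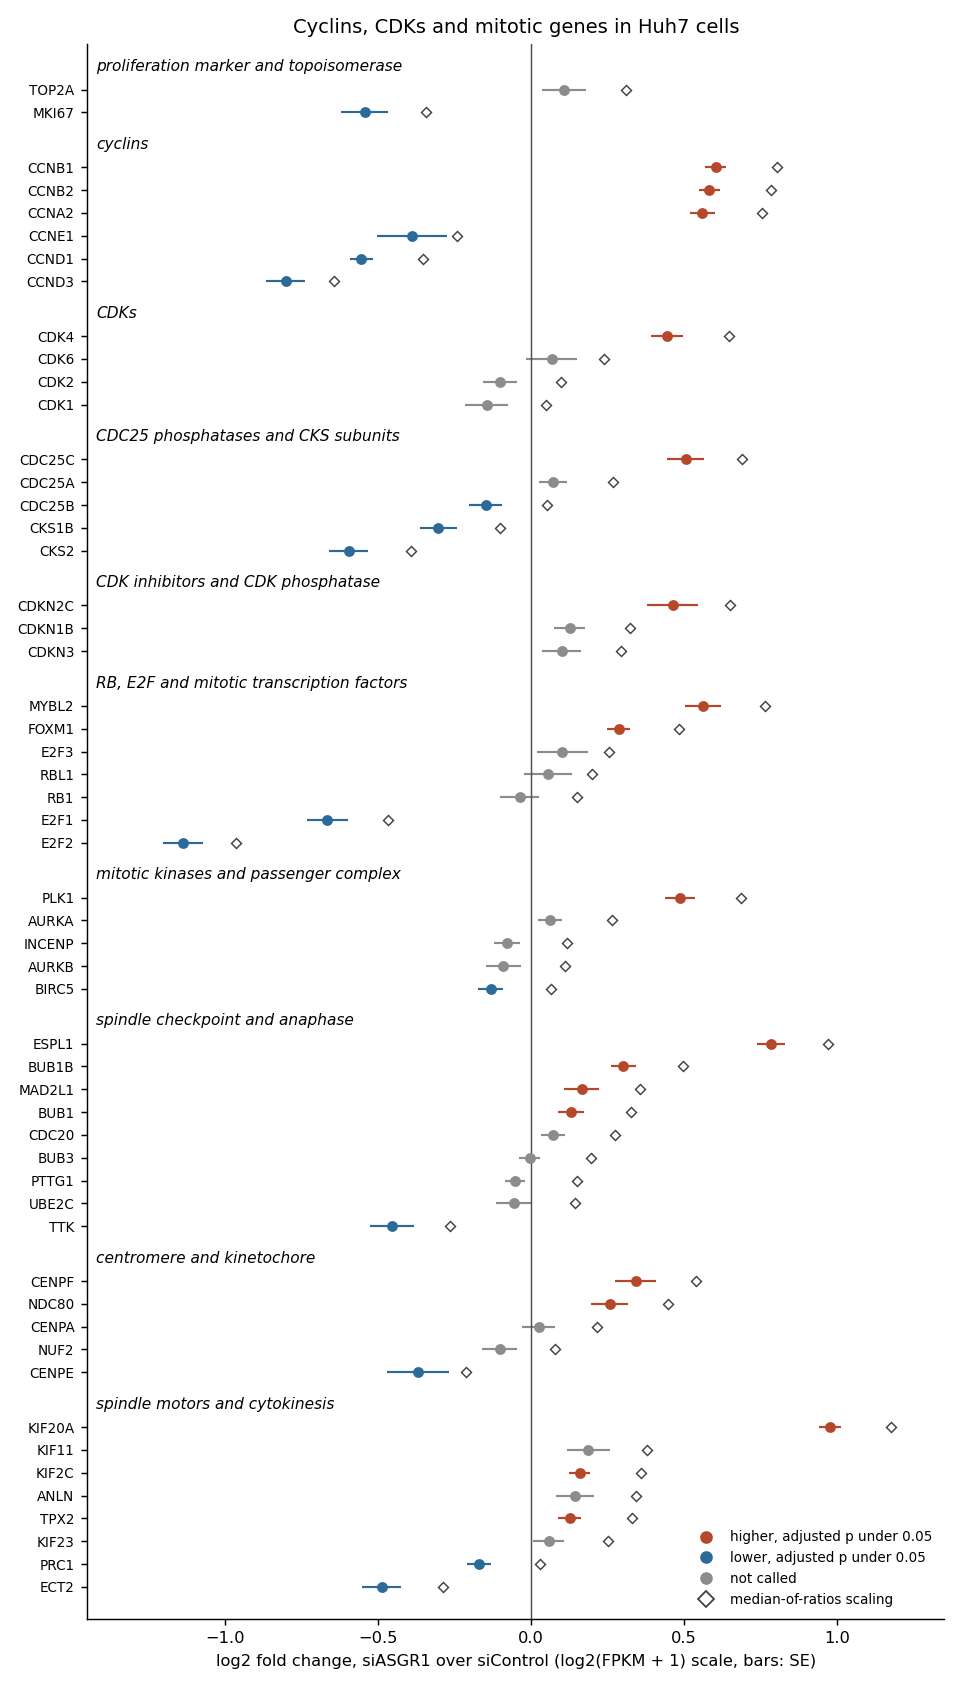
Log2 fold change (siASGR1 over siControl, log2(FPKM + 1) scale) of the 54 tested members, grouped by role, with bars for the SE of the limma fit (n = 3 libraries per group). Filled points are the values as deposited, coloured by call, and open diamonds are the same genes after median-of-ratios scaling. KIF20A at 0.97 and E2F2 at -1.14 are the extremes, and the diamonds lie 0.14 to 0.20 to the right of the points.

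**Figure D2:**
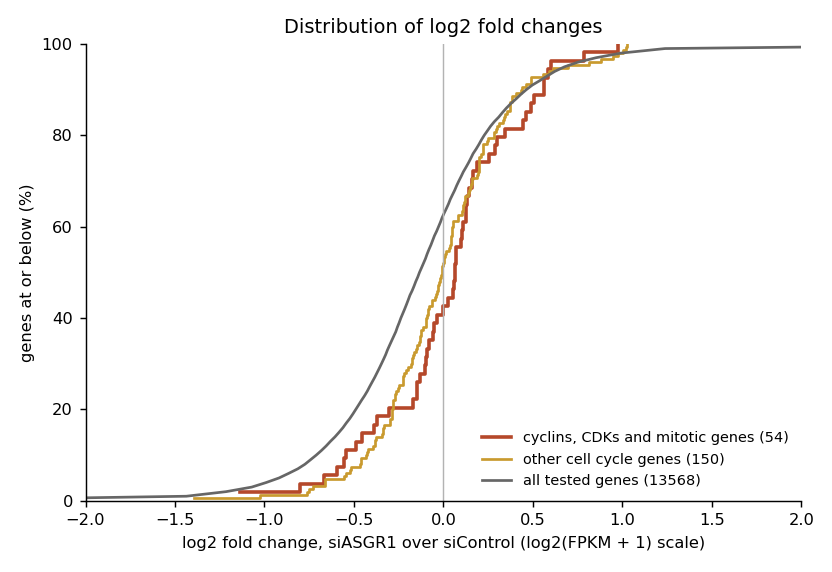
Cumulative share of genes (vertical axis, percent) at or below each log2 fold change (horizontal axis, siASGR1 over siControl) for the 54 tested members, 150 other cell cycle genes and all 13568 tested genes. The members' curve crosses the middle at 0.06 and that of all tested genes at -0.13, and the members' values span -1.14 to 0.97.

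Promoter windows of the 8 members past 1.5-fold are shown because these genes carry the largest differences in each direction. The windows, from RefSeq on GRCh38.p14, run from 250 bases before to 50 bases after an annotated transcript start, 5' to 3' on the gene's strand. Capitals mark 3 kinds of match on either strand: the cell cycle homology region (CHR) words TTTGAA and TTCGAA, at which MuvB complexes bind in G2 and M phase promoters, the CCAAT box CCAAT, and the E2F words TTTCCCGC, TTTCGCGC, TTTGCCGC and TTTGGCGC. Their reverse complements are included, and no marked match shares letters with one of another kind. The first 4 genes were higher in siASGR1.
KIF20A promoter, chr5:138178862-138179161, plus strand: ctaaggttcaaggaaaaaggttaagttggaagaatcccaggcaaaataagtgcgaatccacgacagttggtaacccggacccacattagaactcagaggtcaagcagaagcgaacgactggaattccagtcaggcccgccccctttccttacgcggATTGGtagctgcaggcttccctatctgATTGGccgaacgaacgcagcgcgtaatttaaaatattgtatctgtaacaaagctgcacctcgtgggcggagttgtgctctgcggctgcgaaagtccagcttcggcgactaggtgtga
CCNB1 promoter, chr5:69166900-69167199, plus strand: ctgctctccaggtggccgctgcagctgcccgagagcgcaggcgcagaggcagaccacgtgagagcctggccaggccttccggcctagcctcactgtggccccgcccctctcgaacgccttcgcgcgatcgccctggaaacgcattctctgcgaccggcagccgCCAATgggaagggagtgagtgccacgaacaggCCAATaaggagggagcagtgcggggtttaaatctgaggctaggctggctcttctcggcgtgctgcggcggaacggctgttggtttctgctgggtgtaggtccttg
CCNB2 promoter, chr15:59104896-59105195, plus strand: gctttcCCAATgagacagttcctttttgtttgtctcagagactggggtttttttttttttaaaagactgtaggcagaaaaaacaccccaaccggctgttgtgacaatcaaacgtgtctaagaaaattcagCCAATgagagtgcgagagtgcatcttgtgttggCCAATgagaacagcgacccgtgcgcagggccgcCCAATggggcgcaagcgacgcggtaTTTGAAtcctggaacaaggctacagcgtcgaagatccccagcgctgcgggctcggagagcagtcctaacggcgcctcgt
ESPL1 promoter, chr12:53268049-53268348, plus strand: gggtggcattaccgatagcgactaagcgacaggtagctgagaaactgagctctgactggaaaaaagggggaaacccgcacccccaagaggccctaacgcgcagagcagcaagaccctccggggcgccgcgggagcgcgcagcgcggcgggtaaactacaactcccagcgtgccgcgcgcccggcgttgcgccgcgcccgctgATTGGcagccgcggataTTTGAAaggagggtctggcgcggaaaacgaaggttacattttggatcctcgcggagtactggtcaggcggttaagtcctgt
The next 4 were lower in siASGR1.
E2F2 promoter, chr1:23531184-23531483, minus strand: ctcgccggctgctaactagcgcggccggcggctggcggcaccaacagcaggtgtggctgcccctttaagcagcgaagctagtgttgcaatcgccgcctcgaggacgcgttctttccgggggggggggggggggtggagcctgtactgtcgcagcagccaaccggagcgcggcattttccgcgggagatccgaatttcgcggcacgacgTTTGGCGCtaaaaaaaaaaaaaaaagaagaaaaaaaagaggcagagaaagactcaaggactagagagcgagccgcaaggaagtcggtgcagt
CCND3 promoter, chr6:42048639-42048938, minus strand: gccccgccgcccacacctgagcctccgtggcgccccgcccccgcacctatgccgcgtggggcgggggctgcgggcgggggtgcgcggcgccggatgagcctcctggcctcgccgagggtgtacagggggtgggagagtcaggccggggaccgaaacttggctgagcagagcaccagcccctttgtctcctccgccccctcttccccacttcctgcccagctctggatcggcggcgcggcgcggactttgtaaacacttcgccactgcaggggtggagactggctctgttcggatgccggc
E2F1 promoter, chr20:33686336-33686635, minus strand: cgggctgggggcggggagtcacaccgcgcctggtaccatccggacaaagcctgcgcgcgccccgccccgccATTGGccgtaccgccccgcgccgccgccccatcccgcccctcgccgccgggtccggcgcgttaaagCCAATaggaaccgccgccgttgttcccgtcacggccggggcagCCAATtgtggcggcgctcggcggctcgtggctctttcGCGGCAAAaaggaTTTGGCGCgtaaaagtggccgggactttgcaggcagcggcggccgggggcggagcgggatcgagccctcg
CKS2 promoter, chr9:89310945-89311244, plus strand: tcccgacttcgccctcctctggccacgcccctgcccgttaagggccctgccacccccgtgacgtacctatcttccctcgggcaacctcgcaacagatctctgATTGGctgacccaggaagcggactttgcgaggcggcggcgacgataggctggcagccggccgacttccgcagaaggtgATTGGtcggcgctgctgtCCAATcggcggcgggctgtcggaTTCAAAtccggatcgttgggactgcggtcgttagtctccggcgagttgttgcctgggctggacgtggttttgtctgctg

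CCAAT boxes were marked in all 4 windows of the higher genes, and CHR words in CCNB2 and ESPL1, with first letters 29 and 31 bases before the transcript start. Other forms of the CHR were not searched for. Unmarked windows, such as those of CCNB1 and KIF20A, are therefore not shown to lack a CHR, and the CHR counts below cover these words only. E2F1 and E2F2, whose products are E2F factors themselves, held E2F words, and E2F1 also 3 CCAAT boxes. CKS2 was lower but held a CHR word 29 bases before its start and 3 CCAAT boxes, and the CCND3 window held none of these words. A window stands at an annotated start that need not be a gene's main start, and windows at other starts were not searched. That of RB1, at 48476200 to 48476499, lies inside the gene, which runs from 48303726 to 48599436 on the plus strand. Of the printed windows, those of KIF20A and CCND3 also lie wholly inside the gene. KIF20A runs from 138178719 to 138187715 on the plus strand, and CCND3 from 41934933 to 42050357 on the minus strand. Over the 45 members with a window in the table, 24 (53.3%) held a CHR word, 28 (62.2%) a CCAAT box and 7 (15.6%) an E2F word, against 16.6%, 35.7% and 3.33% of 27305 promoter windows of the same length. A CHR word stood in 8 of the 16 windows of higher members, 5 of the 11 of lower members and 11 of the 18 of members not called, and a CCAAT box in 9, 6 and 13 of them. E2F words stood in 0 windows of higher members, 2 of lower members and 5 of members not called. A match is a description of letters, not of binding.

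The cyclins divided by type. All 3 members that are cyclins of S, G2 and M phase were higher in siASGR1. CCNB1 (ENSG00000134057; GRCh38 chromosome 5, 69167010 to 69178245), the main partner of CDK1 at mitotic entry, was at 68.69, 68.75 and 67.80 FPKM in siASGR1 and 45.07, 45.32 and 43.70 FPKM in siControl. The groups lay far apart relative to their SD of 0.53 FPKM in siASGR1 and 0.87 FPKM in siControl (log2 fold change 0.60, SE 0.03, adjusted p = 1.31e-05). CCNB2, a second mitotic cyclin of the B type, was at 56.73, 56.45 and 55.20 FPKM in siASGR1 and 37.50, 36.85 and 37.15 FPKM in siControl (log2 fold change 0.58, SE 0.03, adjusted p = 1.4e-05). Its fold of mean FPKM, 1.51, was close to the 1.53 of CCNB1. CCNB3, a B-type cyclin outside the 56 members, was not called, at 5.90 ± 0.52 FPKM in siASGR1 and 6.11 ± 0.36 FPKM in siControl (SD, n = 3; adjusted p = 0.614). CCNA2, cyclin A2, which pairs with CDK2 and CDK1, was at 28.53, 26.97 and 28.59 FPKM in siASGR1 and 19.18, 18.32 and 18.59 FPKM in siControl, with no overlap and a fold of 1.499 (log2 fold change 0.56, SE 0.04, adjusted p = 4e-05). Of the exon bases of CCNA2, 9.08% also belong to EXOSC9 on the other strand, whose FPKM was 5.24 ± 0.51 in siASGR1 and 4.28 ± 0.39 in siControl (SD, n = 3). The strand setting of the counting is not given in the sources used here, so reads of such pairs cannot be told apart.

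The G1 cyclins were lower or too low to test. CCND1 (ENSG00000110092; GRCh38 chromosome 11, 69641087 to 69654474), the most abundant D-type cyclin here, was at 46.76, 47.14 and 48.83 FPKM in siASGR1 and 72.50, 68.87 and 69.76 FPKM in siControl. All siASGR1 libraries were far below the lowest siControl library (log2 fold change -0.56, SE 0.04, adjusted p = 2.79e-05). LTO1, which shares 10.3% of its exon bases from the other strand, was also lower, at 4.14 ± 0.07 FPKM in siASGR1 and 6.74 ± 0.30 FPKM in siControl (SD, n = 3). CCND3 was at 2.19, 2.38 and 2.49 FPKM in siASGR1 and 4.98, 4.93 and 4.62 FPKM in siControl, 2.06-fold lower in siASGR1 in mean FPKM (log2 fold change -0.80, SE 0.06, adjusted p = 5.14e-05). CCND2 was almost silent, at 0, 0 and 0.01 FPKM in siASGR1 and 0.07, 0.05 and 0.11 FPKM in siControl, values that rest on 0 to 13 reads per library. The D-type cyclins thus kept the order CCND1, CCND3, CCND2 by FPKM in every library.

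The E-type cyclins, partners of CDK2 at the start of S phase, were both low. CCNE1 was at 1.77, 2.51 and 1.88 FPKM in siASGR1 and 2.62, 3.01 and 3.34 FPKM in siControl, without overlap (log2 fold change -0.39, SE 0.11, adjusted p = 0.0208). This call was lost without siASGR1 replicate 1, siASGR1 replicate 3, siControl replicate 2 or siControl replicate 3 (adjusted p = 0.0545 to 0.0666), and with median-of-ratios scaling, quantile normalization or no filter, within a range of 0.00716 to 0.182 over all alternatives. CCNE2, which shares 37% of its exon bases with INTS8 on the other strand, was at 0.55, 0.42 and 0.45 FPKM in siASGR1 and 0.73, 0.78 and 0.43 FPKM in siControl, so that the groups overlapped.

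**Figure D3:**
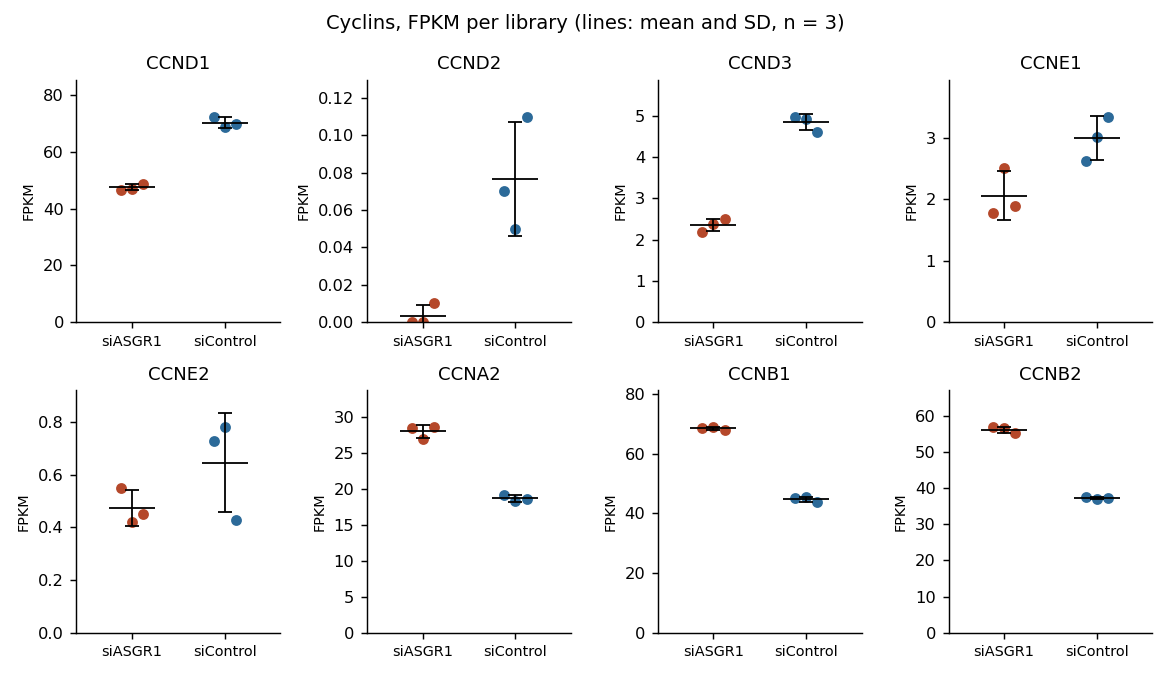
FPKM of the 8 cyclins in each library (points; siASGR1 left, siControl right), with the mean and SD of each group of 3 (lines). CCNA2, CCNB1 and CCNB2 lie higher in siASGR1, CCND1, CCND3 and CCNE1 lower, and CCND2 and CCNE2 stay below 1 FPKM in every library.

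Among the kinases, CDK4, the catalytic partner of D-type cyclins, was higher and the other 3 were not called. CDK4 was at 51.87, 56.12 and 50.06 FPKM in siASGR1 and 39.87, 38.24 and 37.14 FPKM in siControl (log2 fold change 0.44, SE 0.05, adjusted p = 0.000308). Of its exon bases 43.2% also belong to TSPAN31 on the other strand, at 2.42 ± 0.17 FPKM in siASGR1 and 2.53 ± 0.68 FPKM in siControl (SD, n = 3), far below CDK4. CDK6, its close relative, was far less abundant, at 5.98, 4.74 and 5.84 FPKM in siASGR1 and 5.02, 5.18 and 5.41 FPKM in siControl, with overlapping groups (log2 fold change 0.07, SE 0.08, adjusted p = 0.515). CDK6 was called higher with median-of-ratios scaling (log2 fold change 0.24, adjusted p = 0.0337) and quantile normalization, within a range of 0.0337 to 0.9 over all alternatives. CDK1, the mitotic kinase, was at 15.94, 14.99 and 15.24 FPKM in siASGR1 and 16.55, 15.85 and 19.13 FPKM in siControl (log2 fold change -0.15, SE 0.07, adjusted p = 0.113). CDK2 was at 24.30, 24.09 and 22.42 FPKM in siASGR1 and 25.29, 23.96 and 26.91 FPKM in siControl (log2 fold change -0.10, SE 0.06, adjusted p = 0.155). For CDK1 and CDK2 the sign turned with median-of-ratios scaling (0.05 and 0.10), and neither was called in any of the 14 alternative fits. Of the tested member cyclins that pair with them, CCNA2, CCNB1 and CCNB2 were called higher. CCNE1, a partner of CDK2, was called lower, a call that held in 6 of 13 alternative fits.

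The CDC25 phosphatases remove the inhibitory phosphates from CDKs, and CDC25C, which acts at mitotic entry, was called higher. CDC25C was at 11.11, 11.40 and 11.20 FPKM in siASGR1 and 8.28, 7.61 and 7.03 FPKM in siControl (log2 fold change 0.50, SE 0.06, adjusted p = 0.000336), called in all 14 alternatives. FAM53C, which shares 8.78% of the CDC25C exon bases from the other strand, went the other way, at 11.0 ± 0.34 FPKM in siASGR1 and 16.2 ± 0.03 FPKM in siControl (SD, n = 3; log2 fold change -0.52). CDC25A, the phosphatase of the G1/S transition, was at 25.46, 25.68 and 24.41 FPKM in siASGR1 and 23.21, 23.43 and 25.14 FPKM in siControl (log2 fold change 0.07, adjusted p = 0.213). It was called higher with median-of-ratios (0.27, adjusted p = 0.00209) and upper-quartile scaling (0.15, adjusted p = 0.0293). CDC25B was at 31.45, 30.90 and 31.23 FPKM in siASGR1 and 34.04, 37.51 and 32.66 FPKM in siControl. Its call (log2 fold change -0.15, adjusted p = 0.0475) was lost without any 1 library other than siControl replicate 3 (adjusted p = 0.0794 to 0.118), and its sign turned with median-of-ratios scaling (0.05, adjusted p = 0.484). CDC25B was called lower in 4 of the 14 alternative fits.

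The CKS proteins are small subunits that dock CDKs onto phosphorylated targets, and both genes were lower. CKS2 (GRCh38 chromosome 9, 89311198 to 89316703) had the highest FPKM of all members, at 286.10, 309.65 and 263.37 in siASGR1 and 431.11, 416.46 and 450.44 in siControl. The groups did not overlap (log2 fold change -0.60, SE 0.06, adjusted p = 0.000204). CKS1B was at 46.75, 51.31 and 46.44 FPKM in siASGR1 and 62.88, 55.72 and 60.39 FPKM in siControl (log2 fold change -0.30, SE 0.06, adjusted p = 0.00364). Its call did not hold under median-of-ratios scaling (log2 fold change -0.10, adjusted p = 0.206). Processed copies of CKS1B are listed in the table, of which CKS1BP3 reached 6.03 FPKM, and the CKS1B values are uncertain to the extent that counting divided reads among these copies.

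Of the inhibitors, CDKN2C, which encodes p18INK4c and binds CDK4 and CDK6, was higher. It was at 11.86, 13.49 and 12.94 FPKM in siASGR1 and 10.16, 8.21 and 8.66 FPKM in siControl (log2 fold change 0.46, SE 0.08, adjusted p = 0.00226), without overlap. CDKN1B, which encodes the CDK2 inhibitor p27, was at 29.40, 29.95 and 31.20 FPKM in siASGR1 and 27.88, 25.93 and 28.94 FPKM in siControl. The groups did not overlap, but the difference was small (log2 fold change 0.13, SE 0.05, adjusted p = 0.0639). It was called without siControl replicate 3 (adjusted p = 0.0324) and with median-of-ratios (log2 fold change 0.32) and upper-quartile scaling (0.20), within a range of 0.000986 to 0.188 over all alternatives. CDKN3, a phosphatase that acts on CDKs, averaged 23.1 ± 1.04 FPKM in siASGR1 and 21.5 ± 1.64 FPKM in siControl (SD, n = 3; adjusted p = 0.208), and was called without siControl replicate 3 (adjusted p = 0.039) and with median-of-ratios scaling (adjusted p = 0.00496).

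The transcription factors upstream of this programme went apart. E2F1 and E2F2, activator E2Fs, were lower. E2F2 (ENSG00000007968; GRCh38 chromosome 1, 23506430 to 23531220) was at 3.27, 3.33 and 3.16 FPKM in siASGR1 and 8.69, 8.81 and 7.60 FPKM in siControl. This was the largest change of any tested member, 2.57-fold lower in siASGR1 in mean FPKM (log2 fold change -1.14, SE 0.07, adjusted p = 1.42e-05). E2F1 (ENSG00000101412; GRCh38 chromosome 20, 33675683 to 33686404) was at 25.69, 26.68 and 25.75 FPKM in siASGR1 and 44.39, 44.13 and 37.51 FPKM in siControl (log2 fold change -0.67, SE 0.07, adjusted p = 0.000155). E2F3, the remaining activator E2F, showed no such difference, at 3.59, 2.80 and 3.15 FPKM in siASGR1 and 2.95, 2.77 and 2.93 FPKM in siControl (log2 fold change 0.10, SE 0.08, adjusted p = 0.317). It was called higher with median-of-ratios scaling (0.26) and quantile normalization (0.28).

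RB1, the retinoblastoma protein gene, was at 10.38, 9.09 and 10.35 FPKM in siASGR1 and 9.68, 10.41 and 10.54 FPKM in siControl, with overlapping groups (log2 fold change -0.04, SE 0.06, adjusted p = 0.642). RBL1, which encodes the related p107, averaged 2.41 ± 0.23 FPKM in siASGR1 and 2.27 ± 0.10 FPKM in siControl (SD, n = 3; adjusted p = 0.56; 0.0204 with quantile normalization). The regulators of late cell cycle genes were higher. MYBL2, B-MYB, was at 81.79, 79.37 and 80.29 FPKM in siASGR1 and 55.66, 57.78 and 49.60 FPKM in siControl (log2 fold change 0.56, SE 0.06, adjusted p = 0.000172). FOXM1 was at 28.60, 28.65 and 28.79 FPKM in siASGR1 and 23.39, 23.93 and 22.74 FPKM in siControl (log2 fold change 0.29, SE 0.04, adjusted p = 0.000476). ITFG2, which shares 15.9% of the FOXM1 exon bases from the other strand, was at 1.95 ± 0.27 FPKM in siASGR1 and 1.65 ± 0.08 FPKM in siControl (SD, n = 3).

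**Figure D4:**
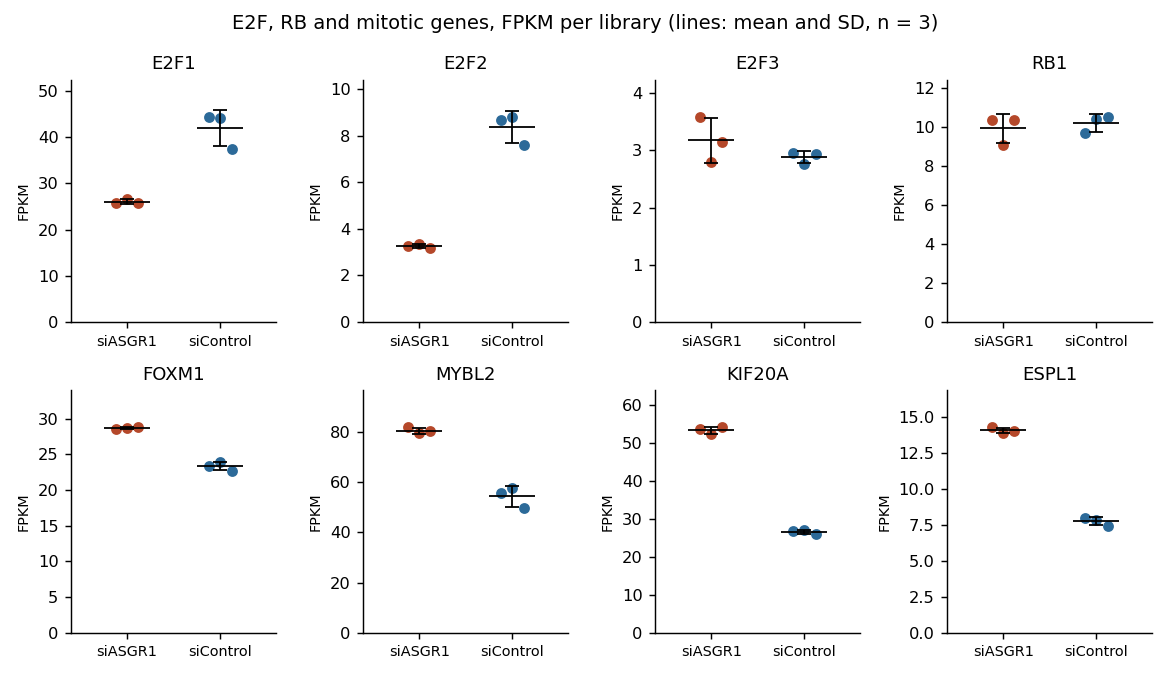
FPKM of E2F1, E2F2, E2F3, RB1, FOXM1, MYBL2, KIF20A and ESPL1 in each library (points; siASGR1 left, siControl right), with the mean and SD of each group of 3 (lines). E2F1 and E2F2 lie lower in siASGR1, FOXM1, MYBL2, KIF20A and ESPL1 higher, and E2F3 and RB1 overlap.

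Both common markers of proliferating cells are mitotic chromosome proteins, and they did not move together. MKI67, which encodes the Ki-67 antigen of the mitotic chromosome surface, was at 51.90, 43.43 and 53.49 FPKM in siASGR1 and 70.46, 72.60 and 74.46 FPKM in siControl (log2 fold change -0.54, SE 0.08, adjusted p = 0.000753). It was called lower in all 14 alternatives. TOP2A, topoisomerase IIα, which untangles sister chromatids, was at 95.86, 84.21 and 93.64 FPKM in siASGR1 and 80.32, 81.05 and 92.60 FPKM in siControl. Its groups overlapped (log2 fold change 0.11, SE 0.07, adjusted p = 0.23), and it was called higher with median-of-ratios scaling (0.31, adjusted p = 0.00559).

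Of the mitotic kinases and the chromosomal passenger complex, which corrects faulty attachments of chromosomes to the spindle, PLK1 was higher, and the small differences of the passenger genes changed sign with the scaling. PLK1, a kinase of mitotic entry and spindle assembly, was at 38.42, 38.35 and 38.26 FPKM in siASGR1 and 28.25, 27.84 and 25.22 FPKM in siControl (log2 fold change 0.49, SE 0.05, adjusted p = 0.000152). AURKA, the spindle pole kinase, averaged 44.6 ± 1.08 FPKM in siASGR1 and 42.7 ± 1.26 FPKM in siControl (SD, n = 3; adjusted p = 0.206), and was called higher with median-of-ratios (0.26, adjusted p = 0.000808) and upper-quartile scaling (0.14, adjusted p = 0.0185). The passenger members AURKB and INCENP averaged 48.5 ± 3.29 and 28.2 ± 1.00 FPKM in siASGR1, against 51.6 ± 2.00 and 29.9 ± 0.79 FPKM in siControl (SD, n = 3; adjusted p = 0.208 and 0.141). Their log2 fold changes were -0.09 and -0.08 as deposited and 0.11 and 0.12 with median-of-ratios scaling, and AURKB was called lower with quantile normalization (-0.17, adjusted p = 0.0261). BIRC5, survivin, was at 24.32, 25.66 and 23.90 FPKM in siASGR1 and 26.63, 27.24 and 27.36 FPKM in siControl. Its call (log2 fold change -0.13, adjusted p = 0.0263) held only without siASGR1 replicate 2 among the 6 fits that leave out a library (otherwise adjusted p = 0.0517 to 0.0977), and its sign turned with median-of-ratios scaling (0.06). BIRC5 was called lower in 6 of the 14 alternative fits.

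In the spindle checkpoint, which holds anaphase until every chromosome is attached, 3 members were higher and 1 lower, and BUB3 was not called. BUB1B, which encodes the checkpoint protein BUBR1, was at 26.01, 25.07 and 26.80 FPKM in siASGR1 and 21.14, 21.11 and 20.39 FPKM in siControl (log2 fold change 0.30, SE 0.04, adjusted p = 0.000636). BUB1, a checkpoint kinase, averaged 25.2 ± 0.82 FPKM in siASGR1 and 22.9 ± 0.59 FPKM in siControl (SD, n = 3; adjusted p = 0.0292). MAD2L1, the checkpoint effector MAD2, averaged 14.4 ± 0.43 FPKM in siASGR1 and 12.8 ± 0.94 FPKM in siControl (SD, n = 3; adjusted p = 0.0421). These calls of BUB1 and MAD2L1 were lost without siASGR1 replicate 1, siASGR1 replicate 3, siControl replicate 1 or siControl replicate 2 (adjusted p = 0.066 to 0.107 and 0.0891 to 0.128), and that of MAD2L1 also without siASGR1 replicate 2 (0.0592). Over all 14 alternative fits, BUB1 kept its call in 9 and MAD2L1 in 6. TTK, the kinase MPS1 that starts the checkpoint, was at 10.61, 9.30 and 11.10 FPKM in siASGR1 and 13.86, 14.24 and 15.46 FPKM in siControl (log2 fold change -0.46, SE 0.07, adjusted p = 0.00131). BUB3, which carries the BUB kinases to kinetochores, averaged 44.8 ± 1.01 FPKM in siASGR1 and 44.9 ± 0.30 FPKM in siControl (SD, n = 3; adjusted p = 0.916), and was called higher with median-of-ratios scaling (0.20, adjusted p = 0.00335).

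Of the anaphase genes, separase was called as deposited and the others were not. ESPL1 (ENSG00000135476; GRCh38 chromosome 12, 53268299 to 53293643), separase, the protease that cuts cohesin, was at 14.27, 13.88 and 14.02 FPKM in siASGR1 and 7.99, 7.82 and 7.43 FPKM in siControl, a fold of 1.81 in mean FPKM (log2 fold change 0.78, SE 0.04, adjusted p = 1.37e-05). PTTG1, securin, the inhibitor of separase, was at 75.37, 76.24 and 74.97 FPKM in siASGR1 and 77.85, 78.07 and 79.29 FPKM in siControl. These values did not overlap, but the difference was small (log2 fold change -0.05, adjusted p = 0.188) and its direction followed the scaling: PTTG1 was called higher with median-of-ratios (0.15) and lower with quantile normalization (-0.13). CDC20 and UBE2C, which activate the anaphase-promoting complex and supply it with ubiquitin, averaged 91.8 ± 0.99 and 35.7 ± 2.13 FPKM in siASGR1, against 87.4 ± 3.53 and 37.1 ± 1.63 FPKM in siControl (SD, n = 3; adjusted p = 0.161 and 0.401). CDC20 was called higher with median-of-ratios (0.27, adjusted p = 0.00164) and upper-quartile scaling (0.15, adjusted p = 0.0162), while its sign turned with quantile normalization (-0.05, adjusted p = 0.355). UBE2C also has listed copies, the highest of them UBE2CP5 at 8.34 FPKM, so its level is uncertain in the same way.

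The kinetochore and centromere genes varied among themselves. CENPF, a large protein of the outer kinetochore, was at 23.40, 20.58 and 24.08 FPKM in siASGR1 and 16.98, 17.39 and 18.60 FPKM in siControl (log2 fold change 0.34, SE 0.07, adjusted p = 0.00348). NDC80, the microtubule-binding subunit, was higher, at 14.86, 14.53 and 15.62 FPKM in siASGR1 and 11.71, 12.03 and 13.49 FPKM in siControl (log2 fold change 0.26, adjusted p = 0.00846). NUF2, which forms a dimer with NDC80, was at 7.11, 7.02 and 6.98 FPKM in siASGR1 and 7.69, 7.10 and 8.14 FPKM in siControl (log2 fold change -0.10, adjusted p = 0.154). The kinesin gene CENPE, which moves chromosomes to the spindle equator, was at 3.14, 2.46 and 2.57 FPKM in siASGR1 and 3.48, 3.59 and 4.36 FPKM in siControl (log2 fold change -0.37, adjusted p = 0.0155). That call was lost without siASGR1 replicate 2 (adjusted p = 0.0504) or siASGR1 replicate 3 (0.0509), with median-of-ratios scaling (0.098), quantile normalization (0.133) and no filter (0.0507), within a range of 0.00997 to 0.133. CENPA, the centromeric histone, averaged 14.5 ± 0.44 FPKM in siASGR1 and 14.3 ± 0.90 FPKM in siControl (SD, n = 3; adjusted p = 0.725), and was called higher with median-of-ratios scaling (0.22, adjusted p = 0.0111). Of its exon bases 6.96% also belong to SLC35F6 on the same strand, which was lower in siASGR1.

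Of the motors and cytokinesis genes, KIF20A stood furthest out. KIF20A (ENSG00000112984; GRCh38 chromosome 5, 138178719 to 138187715), a kinesin of the central spindle in anaphase and cytokinesis, was at 53.70, 52.37 and 54.21 FPKM in siASGR1 and 26.87, 27.06 and 26.14 FPKM in siControl. Its fold of mean FPKM was 2.00, the largest increase among the tested members (log2 fold change 0.97, SE 0.04, adjusted p = 3.13e-06). KIF23, the motor of centralspindlin, averaged 16.8 ± 0.31 FPKM in siASGR1 and 16.1 ± 0.95 FPKM in siControl (SD, n = 3; adjusted p = 0.364), and was called higher with median-of-ratios scaling (0.25, adjusted p = 0.00396). KIF4A, a central spindle kinesin outside the members, was higher, at 10.6 ± 0.45 FPKM in siASGR1 and 6.72 ± 0.43 FPKM in siControl (SD, n = 3; adjusted p = 0.00014). PRC1, which bundles the antiparallel microtubules, averaged 30.7 ± 0.96 FPKM in siASGR1 and 34.7 ± 0.61 FPKM in siControl (log2 fold change -0.17, adjusted p = 0.00765; SD, n = 3), and its sign turned with median-of-ratios scaling (0.03, adjusted p = 0.523). ECT2, the exchange factor that activates RhoA at the furrow, was at 34.96, 31.14 and 34.39 FPKM in siASGR1 and 44.62, 46.78 and 50.84 FPKM in siControl (log2 fold change -0.49, SE 0.06, adjusted p = 0.000498). ANLN, anillin, which organizes the contractile ring, averaged 48.3 ± 3.24 FPKM in siASGR1 and 43.6 ± 2.42 FPKM in siControl (SD, n = 3; adjusted p = 0.0838).

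The spindle assembly members differed little. KIF11, the kinesin that pushes the poles apart, averaged 18.2 ± 1.34 FPKM in siASGR1 and 15.9 ± 1.16 FPKM in siControl (SD, n = 3; adjusted p = 0.0524). KIF11 and ANLN were both called higher without siASGR1 replicate 2 (adjusted p = 0.0216 and 0.0219) or siControl replicate 3 (0.0217 and 0.0401), and with median-of-ratios (0.00189 and 0.00165) and upper-quartile scaling (0.0155 and 0.0184). KIF2C, a kinesin that depolymerizes microtubules at centromeres, was at 45.71, 46.30 and 44.76 FPKM in siASGR1 and 41.01, 40.87 and 40.35 FPKM in siControl (log2 fold change 0.16, SE 0.03, adjusted p = 0.00537). TPX2, the activator of AURKA, averaged 112.0 ± 2.70 FPKM in siASGR1 and 102.6 ± 2.68 FPKM in siControl (SD, n = 3; log2 fold change 0.13, adjusted p = 0.0229). The TPX2 call was lost without siASGR1 replicate 1, siASGR1 replicate 3, siControl replicate 1 or siControl replicate 2 (adjusted p = 0.0609 to 0.0852) and with quantile normalization (0.887). It held in 7 of the 14 alternative fits.

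Within a group the libraries agreed closely: the coefficient of variation of the 54 tested members had a median of 3.26% in siASGR1 and 4.41% in siControl. Part of that spread followed transcript length. In siASGR1 replicate 2 the level was the lowest of its group for 25 of 54 members, comprising 18 of the 27 with exon length above 4037 bases and 7 of the 27 others. In siControl replicate 1 it was the lowest for 24 members, comprising 16 of the 27 longer and 8 of the 27 others. The tested genes with a known exon length, which are not all 13568, were split by length into 4 bands of 3280 to 3282 genes. The 6 members in the longest band had a median deviation in siASGR1 replicate 2 of -0.17 from the other siASGR1 libraries on the log2(FPKM + 1) scale. The 8 members in the shortest band had a median 0.07 above. The same lean was present over all genes in the bands, at -0.07 for the longest band and 0.05 for the shortest in siASGR1 replicate 2, and -0.02 and 0.03 in siControl replicate 1. MKI67, with 12807 exon bases, was 43.43 FPKM in siASGR1 replicate 2 and 51.90 and 53.49 FPKM in the others of its group. Without siASGR1 replicate 2, 19 members were higher and 12 lower, where 20% and 37.5% of all tested genes were. Among siControl libraries replicate 3 was the highest for 30 of 54 members, and without it 22 were higher and 12 lower, where 20.3% and 38.0% of all tested genes were.

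**Figure D5:**
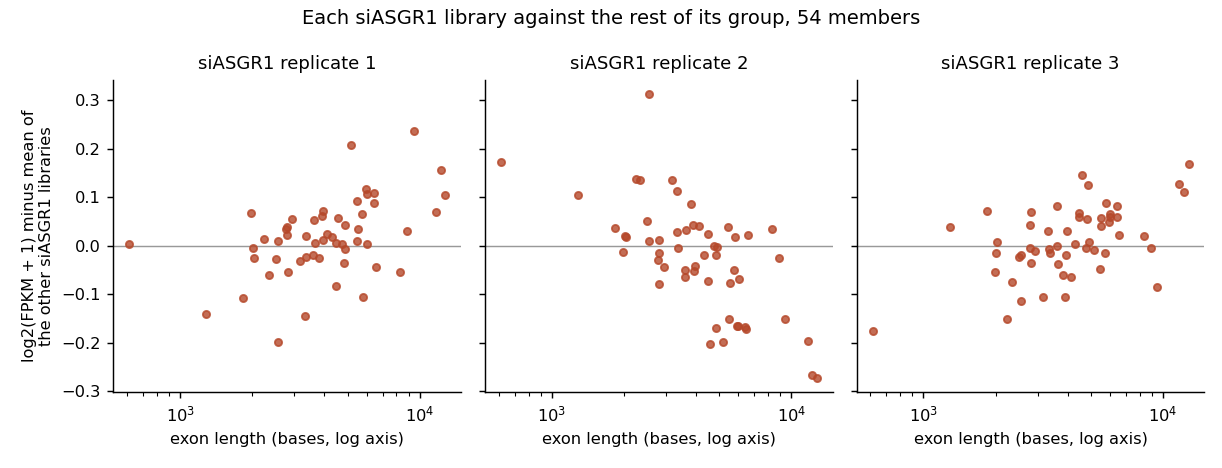
Deviation of each siASGR1 library from the mean of the other 2 siASGR1 libraries (vertical axis, log2(FPKM + 1)) against exon length (horizontal axis, bases, log axis) for the 54 tested members (1 point per gene). Points fall to the right in replicate 2, in which MKI67, the longest member, deviates by -0.27.

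The rest of the cell cycle machinery was examined in 152 further genes from 7 lists, of which 150 were tested. Of these, 45 were higher (30%) and 45 lower (30%) in siASGR1, with a median log2 fold change of -0.01, against 20.9% and 40.4% of all tested genes. With median-of-ratios scaling the counts were 70 and 22 of 150, where 33.4% of all tested genes were higher and 25.8% lower. The other CDK inhibitors were mostly lower, with 4 of 5 lower and 1 higher, also with median-of-ratios scaling. CDKN2B, p15INK4b, was 2.51 ± 0.34 FPKM in siASGR1 and 8.20 ± 0.58 FPKM in siControl (SD, n = 3; adjusted p = 2.02e-05). CDKN1A, the p53-induced inhibitor p21, was 5.12 ± 0.38 FPKM in siASGR1 and 9.39 ± 0.90 FPKM in siControl (adjusted p = 0.000163). CDKN2D, p19INK4d, was 1.47-fold lower and CDKN1C, p57, 1.77-fold lower. CDKN1C was low, at 0.84 ± 0.11 FPKM in siASGR1 and 1.49 ± 0.14 FPKM in siControl (SD, n = 3), on 36 to 78 reads per library. It was under 1 FPKM in every siASGR1 library and passed the filter on low values through the siControl libraries alone. A filter met by the higher group alone favours a call of lower, so CDKN1C is weak evidence among the 4. CDKN2A, whose products include p16INK4a of the same family as CDKN2C, was higher, at 17.7 ± 1.58 FPKM in siASGR1 and 14.4 ± 1.12 FPKM in siControl (SD, n = 3; adjusted p = 0.0163). Its FPKM cover the whole gene, so the rise is not assigned to the p16INK4a transcript. The INK4 genes, CDKN2A to CDKN2D, thus went in both directions.

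Of 15 other genes of the DREAM complex, which represses cell cycle genes in resting cells, and the RB and E2F families, 2 were higher (13.3%) and 5 lower (33.3%), against 20.9% and 40.4% of all tested genes. With median-of-ratios scaling 5 were higher and 3 lower, against 33.4% and 25.8%, so the balance of this list followed the scaling. E2F4, the E2F of the DREAM complex, was 10.0 ± 1.24 FPKM in siASGR1 and 21.3 ± 0.64 FPKM in siControl (SD, n = 3; adjusted p = 4.66e-05), E2F6 was 1.70-fold lower and LIN37 1.44-fold lower. Of 21 tested other cyclins and CDKs, 6 were higher and 6 lower (28.6% each), and 11 and 3 with median-of-ratios scaling, with CDK14 2.48-fold higher, CDK8 1.34-fold higher and CCNG1 1.59-fold lower. Of 23 genes of the APC/C and SCF ubiquitin ligases, which destroy cyclins and CDK inhibitors, 8 were higher and 8 lower (34.8% each), and 10 and 3 with median-of-ratios scaling. The scaffold gene CUL1 was 13.3 ± 0.85 FPKM in siASGR1 and 6.29 ± 0.75 FPKM in siControl (SD, n = 3; adjusted p = 6.99e-05), ANAPC15 was 2.50-fold higher and SKP1 1.42-fold higher.

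Structural genes of mitosis outside the members were likewise mixed, and their counts are again read against 20.9% higher and 40.4% lower of all tested genes. Of 37 other kinetochore and checkpoint genes, 9 were higher (24.3%) and 11 lower (29.7%), with SPC24, a partner of NDC80 in its complex, 2.11-fold and ZW10 1.97-fold higher and DSN1 1.70-fold lower. Of 18 condensin and cohesin genes, 8 were higher (44.4%) and 3 lower (16.7%), with SMC1A, NCAPG and NCAPD3 1.32-fold to 1.49-fold higher. Of 31 other spindle, motor and cytokinesis genes, 11 were higher (35.5%) and 8 lower (25.8%), and the smallest p-values were those of SPDL1, HMMR and NUSAP1, which were 1.54-fold to 2.14-fold higher. With median-of-ratios scaling, under which 33.4% of all tested genes were higher and 25.8% lower, the kinetochore and checkpoint list turned to 16 higher and 6 lower, condensin and cohesin had 11 and 1, and the spindle list 16 and 2.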

How the data were processed

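RNA was sequenced from 6 Huh7 libraries made with a TruSeq kit from 1 µg of total RNA, per the labels' protocols. The submitters' processing notes name HISAT2 2.0.1, cutadapt 1.9.1, bcl2fastq 2.17.1.14 and the build hg19. The sources used here do not give the counting program, annotation or strand setting. The deposited values are FPKM computed by the authors, per the file headers, with 2 decimals. Depth was fitted so that low FPKM become whole reads (95.6% to 96.3% of values of up to 20 reads, against 13.0% to 13.8% by chance), with exon lengths of GENCODE v29. Gene positions come from GENCODE v29 on GRCh38 and not from the deposited tables. Limits set by read depth cover counting error only.

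The 13568 genes that reached 1 FPKM in 3 or more libraries were tested with limma 3.58.1 in R 4.3.3 on log2(FPKM + 1), with group as the only term, a prior that follows expression, two-sided tests and Benjamini-Hochberg adjustment over all of them. Fold changes on this scale understate those of low genes. The fit was tested on simulated data in which a small share of genes changed, equally up and down. That setting differs from these data and cannot bear on the choice of scaling. Members and lists were chosen with earlier results of these data known. All 56 members are accounted for; members past 1.5-fold, close relatives and a few regulators are given per library by rule, and the remaining members given per library, with CCNB3, KIF4A, CDKN1C and CDKN2A, were chosen after their values were seen. Of the other lists up to 3 called genes with the smallest p-values are named. Alternatives covered scaling, pseudocount, filters, the prior, a replicate block, a stricter threshold and leaving out each library. Tables and plots used Python 3.11.15, pandas 2.3.3, numpy 2.4.6 and matplotlib 3.10.9.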

Additional observations from a re-analysis of the deposited data

How the results depend on the processing

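Counts of members called depended mainly on scaling. With median-of-ratios scaling 32 members were higher and 8 lower (18 and 14 as deposited), 4528 of all tested genes were higher and 3494 lower (2839 and 5480 as deposited), and 70 and 22 of the other cell cycle genes (45 and 45 as deposited). Among members called as deposited or with that scaling, the sign turned for CDC25B (0.050), BIRC5 (0.065), BUB3 (0.196), PTTG1 (0.149) and PRC1 (0.029), since every member moved up by 0.14 to 0.20, and among those called in neither it turned for CDK1, CDK2, RB1, AURKB, INCENP, UBE2C and NUF2. The 1 other count that moved by over 1.5 times was that of all tested genes lower, 3382 when FPKM of at least 5 were required, by construction over fewer genes. Leaving out each library gave 15 to 22 members higher and 10 to 12 lower, 2495 to 2757 and 4950 to 5151 of all tested genes, and 39 to 48 and 37 to 41 of the other cell cycle genes. Calls were lost for 7 members and gained for 4 in at least 1 of these fits, with no change of sign among called members. Equal replicate numbers did not pair the libraries (r = -0.02, 0.002 and 0.01 for deviations from the group means, and not every library correlated best with its own number); the replicate block gave 17 members higher and 13 lower, with 2761 and 5303 of all 13568 tested genes. CCND2 and CCNE2 did not pass the filter on low FPKM, and their values rested on at most 62 reads per library.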
